A study of Homo sapiens with 19 samples.

Results

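Cells of MDA-MB-231, an established human triple-negative breast cancer line, were compared after 16 h as floating spheres with the same line growing attached. The comparison takes the 2 libraries of 16 h spheres against the 2 of adherent cells, out of 19 libraries in the series, and covers every gene with a mean normalized count of at least 10 over the 6 culture libraries (these 4 and 2 of 5 d spheres), which left 13789 of the 19021 genes in the deposited culture table. Adherent cells grew on plastic in DMEM with 10% fetal calf serum. Spheres were kept in suspension on non-adherent plates in DMEM/F12 with B27 (1 in 50), EGF and FGF at 20 ng/ml each and no serum named. Attachment, basal medium, serum, B27 and growth factors thus changed together, and their effects cannot be told apart. Both groups are the same line with no genetic change or siRNA named for them, and the labels do not say whether the libraries of a group came from separate cultures. The p-values therefore measure only the spread between these libraries, which may be technical.

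Attached cells hold the matrix through integrins, and actin tension at these contacts keeps YAP and TAZ, the co-activators of growth and matrix genes, in the nucleus. Cells in suspension lose these contacts and pack into aggregates. Serum brings lipoproteins, steroid hormones and growth factors, while B27 is a defined supplement that holds, among other things, corticosterone, insulin and retinyl acetate. Sphere culture is widely used to enrich tumour-initiating cells of breast cancer. When oxygen is short, prolyl hydroxylases stop marking the HIF alpha subunits for destruction, and HIF then binds short elements near the genes of glycolysis, angiogenesis and matrix maturation.

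The adherent libraries held 11980810 and 14781941 reads and the sphere libraries 10080055 and 8808301. Values below are normalized counts, the reads of a gene divided by 1 size factor per library and not by gene length, so levels are compared between groups and not between genes. The number after ± is the standard error of a limma log2 fold change (16 h minus adherent), or an SD (n = 2) where it follows a mean. A gene is called higher or lower at a Benjamini-Hochberg adjusted p under 0.05 over all genes tested. Of these, 53.9% were called in either direction, 27.4% higher (3775 genes) and 26.5% lower (3655), with 8.54% higher and 8.6% lower by at least 2-fold. Each count of a gene list is to be read against these shares. The balance of rises and falls depends on how the libraries are scaled: without the mitochondrial and ribosomal protein genes in the scaling there were 2523 rises and 5449 falls, and the median log2 fold change of all genes moved from -0.01 to -0.21. Rescaling lowered the medians of the gene lists by 0.15 to 0.21. Where rescaling or quantile normalization turns the sign of a median printed here, that is said beside it.

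The share of called genes grew with the level of a gene. It was 31.7% of genes with a mean under 50 normalized counts, with a median standard error of 0.43, and 92.9% of the 255 genes above 5000, where the median standard error was 0.03. Among those 255 genes 194 were called higher and 43 lower (median log2 0.41), while in the weakest class 440 were higher and 488 lower. Large rises were more frequent than large falls. A log2 fold change of at least 3 was reached by 187 called genes upwards and 105 downwards, and one of at least 5 by 49 and 20.

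**Figure D1:**
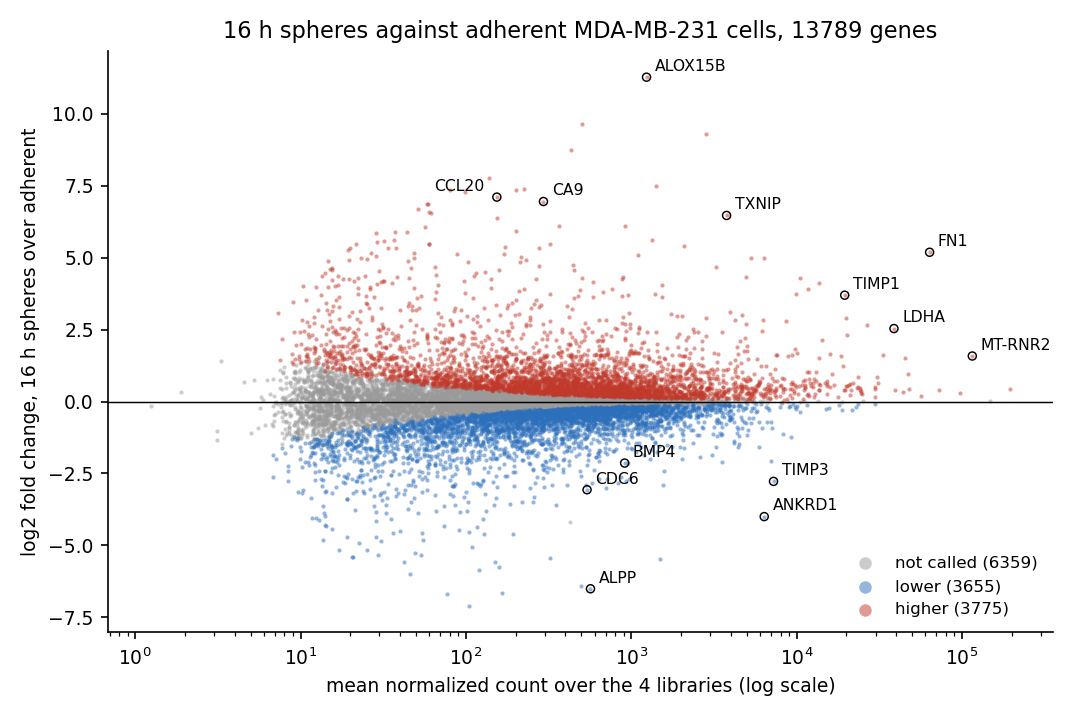
Log2 fold change of 16 h spheres over adherent cells (vertical axis) against the mean normalized count over the 4 libraries (horizontal axis, log scale) for each of the 13789 genes tested, with 3775 genes called higher in red, 3655 called lower in blue and the others in grey. Called genes spread from above 10 to below -6, and most genes at the right end lie above 0.

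Markers of the line were present in both groups. The filament protein VIM, the hyaluronan receptor CD44, the membrane-actin linker MSN and the caveolar protein CAV1 were each measured at 2939 normalized counts or more in all 4 libraries. Not all markers of the line held their level. FN1 rose, as given below, and another marker fell from 8898 and 8989 in adherent cells to 2887 and 3044 at 16 h (log2 -1.59). The oestrogen receptor ESR1 had 3 reads in adherent cells and 0 at 16 h. The receptor kinase ERBB2 stood at 728 and 663 normalized counts in adherent cells and 566 and 583 at 16 h. Some epithelial markers were low. CDH1, the epithelial cadherin, had 58 reads in adherent cells and 1 at 16 h. EPCAM stood at 89.8 and 93.8 when attached and 25.6 and 23.2 as spheres (log2 -1.87 ± 0.26). The keratin KRT18 was low in neither group: attached cells gave 2964 and 2895, and spheres gave 2122 and 2179 (log2 -0.45). The mucin MUC1 went the other way, from 43.0 and 43.8 to 487 and 453. Of 20 markers of leukocytes, endothelium and platelets 7 were in the table, and their summed level was 213 to 217 in adherent libraries and 361 to 445 at 16 h, most of it the VEGF receptor KDR. The leukocyte marker PTPRC, at 36 reads in adherent cells, had 0 at 16 h, a level at least 3.53-fold lower. Of 14 fibroblast and adipocyte markers 9 were in the table, with sums of 93.6 to 116 and 1163 to 1171. Nearly all of the second sum is the matrix proteoglycan DCN, described below, and the part of other cells in it was not tested.

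The genes with the largest rises include a chemokine, a thioredoxin-binding protein and a regulator of G protein signalling. CCL20, a chemokine for lymphocytes and dendritic cells, held 0.755 and 1.83 normalized counts in the adherent libraries and 328 and 285 at 16 h (log2 7.11 ± 0.42, limma adjusted p = 2.69e-17). TXNIP, the thioredoxin-binding protein that rises with cellular glucose and restrains its uptake, went from 80.7 and 85.8 to 7327 and 7580 (log2 6.47 ± 0.06, limma adjusted p = 1.46e-44). RGS2, a brake on G protein signalling, went from 21.1 and 30.4 to 1789 and 1809 (log2 6.09 ± 0.13). In each of these the sphere libraries lie far above the adherent libraries and close to each other. The complement protein C3 (log2 6.36 ± 0.41), the gel-forming mucin MUC5B (6.12 ± 0.20), the inducible chaperone HSPA6 (5.92 ± 0.42) and the transcription factor ATOH8 (5.47 ± 0.54) were also among the 25 largest rises.

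Several of the risers had so few reads in attached cells that a fold is only loosely set. GNLY, the cytolytic protein granulysin, had 0 reads in adherent cells and was at least 56.7-fold higher at 16 h. The muscle Z-disc protein LDB3 had 1 read in adherent cells and stood at 200.4 and 193 normalized counts at 16 h, a ratio of 584 (interval 105 to 23100). The same holds for C8orf4, with a ratio of 356 (interval 63.9 to 14100), and for the vasoconstrictor peptide EDN2, with 2 adherent reads and a ratio of 167 (interval 46.2 to 1380). DCN reached 1014 and 999 normalized counts from 1 read in adherent cells. These intervals (95%, exact Poisson on the adherent reads) cover counting error only.

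The 25 largest falls, taken by rule from genes with a mean of at least 100 normalized counts in attached cells, include a muscle protein, a tetraspanin and a matrix protein. ANKRD1, a muscle ankyrin repeat protein and a target of YAP and TAZ, stood at 12030 and 11930 normalized counts in adherent cells and 767 and 730.4 at 16 h (log2 -4.00 ± 0.04, limma adjusted p = 5.42e-42). The tetraspanin TSPAN8 went from 210.5 and 212 to 3.2 and 8.55 (log2 -5.07 ± 0.40). The matrix protein MATN2 went from 394 and 351 to 13.9 and 14.7 (log2 -4.61 ± 0.24). Others of the 25 largest falls were CD177, a surface glycoprotein known from neutrophils (-4.82 ± 0.58), the B cell lectin CD22 (-3.83 ± 0.29), the hexokinase-like HKDC1 (-3.80 ± 0.38), the ubiquitin ligase MARCH1 (-4.37 ± 0.33) and the sialyltransferase ST6GALNAC5 (-3.61 ± 0.35). SERTAD4 (log2 -5.87 ± 0.51) fell along with SERTAD4-AS1, at 1 read in spheres. By its name the second is antisense to the first, and reads of such a pair cannot be told apart because library making kept no record of strand.

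Spheres gave more of their reads to a few genes. The 10 genes with the most reads took 7.94% to 7.97% of the reads in adherent libraries and 10.4% at 16 h, and the top 100 took 22.4% to 22.5% and 29%. FN1, fibronectin, rose from 0.0364% and 0.039% of reads to 1.16% and 1.15%. TIMP1, an inhibitor of metalloproteinases, rose from 0.0306% and 0.0314% to 0.336% and 0.338%. The carboxypeptidase CPD rose from 0.0165% in each adherent library to 0.236% and 0.241%. Among nuclear genes FN1 gained most, followed by LDHA, GAPDH, TIMP1, the metallothionein MT2A, the stress-responsive NDRG1, the kinase regulator ERRFI1 and CPD. The 10 genes that gained most took up 4.64 percentage points together, out of 18.1 points over all genes whose share rose. The largest losses were those of the translation factor EEF1A1, from 1.63% to 1.37%, and of ANKRD1, from 0.133% to 0.00714% and 0.00679%. A share counts parts of a fixed total, so a loss of share need not be a lower normalized count: EEF1A1 had 147000 and 146700 and 147100 and 147700 normalized counts, a log2 fold change of 0.01 ± 0.01 that was not called.

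**Figure D2:**
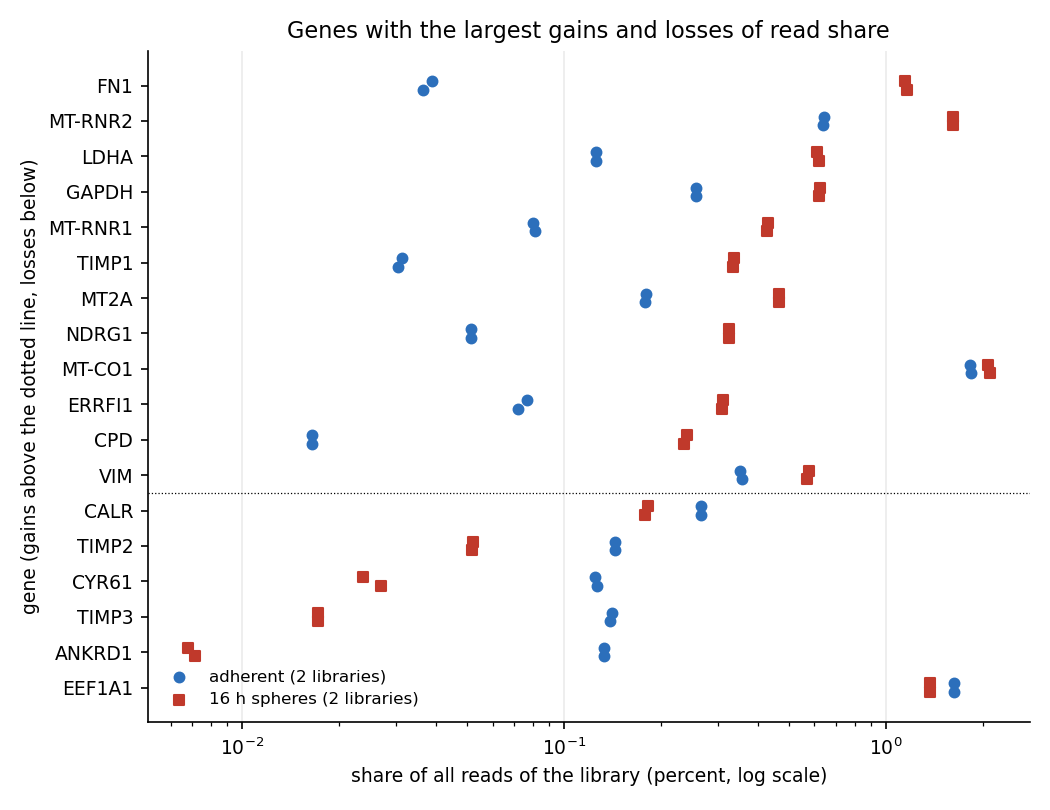
Share of all reads (percent, horizontal axis, log scale) taken by the 12 genes with the largest gains and the 6 with the largest losses of share, with 1 point per library, adherent in blue and 16 h in red. FN1 moves from about 0.04% to 1.16%, and the 2 libraries of a group nearly coincide for each gene.

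Oxygen-responsive genes rose as a group. Of the genes that sense oxygen or make up the factor, 8 of 10 tested were called higher and 1 lower (median log2 0.40). HIF1A, the regulated alpha subunit, whose control is mostly at the protein, stood at 3842 and 3901 in adherent cells and 5555 and 5258 at 16 h (log2 0.48 ± 0.03). The prolyl hydroxylase EGLN3, itself a HIF target, stood out with 87.5 and 84.6 against 1713 and 1623 (log2 4.26 ± 0.10), compared with 0.56 ± 0.07 for EGLN1, the main oxygen sensor. The partner subunits moved apart, with ARNT at 0.82 ± 0.09 and ARNT2 at -1.94 ± 0.14, the only fall.

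All 28 tested members of the list of classic hypoxia targets outside glycolysis were called higher, 25 of them at least 2-fold, with a median of 1.67 against -0.01 for all genes. CA9, a surface carbonic anhydrase, held 4.53 and 3.04 normalized counts in adherent cells and 553 and 617 at 16 h (log2 6.95 ± 0.26, limma adjusted p = 2.92e-23). The clock and hypoxia receptor RORA (3.30 ± 0.16), the mTORC1 inhibitor DDIT4 (2.83 ± 0.03), the peptide ADM (2.51 ± 0.06), the repressor BHLHE40 (2.41 ± 0.04) and the angiogenic ligand VEGFA (1.77 ± 0.03) followed. The smallest rise in the list was that of TMEM45A at 0.52 ± 0.11.

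HIF binds the core ACGTG, and promoters show where that core lies in genes that rose. Windows of 300 bases (250 before to 50 after the start, RefSeq, GRCh38.p14, the first window listed for a gene) were found for 23 of the 28 hypoxia genes and for 18 of 19 glycolysis genes. The core was present on either strand in 15 of the 23 (65.2%) and in 7 of the 18 (38.9%), against 21.6% of 27305 windows and 27.2% of the 10140 tested genes with a window. Among those 10140 genes, the median log2 fold change was 0.00 with and without the core, and 29.7% of the genes with it were called higher. The 4 windows below were chosen because they hold the core in genes with large or abundant rises, with each match in capitals (ACGTG, or CACGT on the other strand, both at once in CACGTG).
CA9, chr9:35673678-35673977, plus strand: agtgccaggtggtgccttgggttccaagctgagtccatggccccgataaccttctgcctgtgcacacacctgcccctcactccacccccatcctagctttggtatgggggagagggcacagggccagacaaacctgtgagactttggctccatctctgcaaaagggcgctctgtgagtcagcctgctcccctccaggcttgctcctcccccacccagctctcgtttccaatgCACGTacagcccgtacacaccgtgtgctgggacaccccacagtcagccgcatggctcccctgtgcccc
LDHA, chr11:18394313-18394612, plus strand: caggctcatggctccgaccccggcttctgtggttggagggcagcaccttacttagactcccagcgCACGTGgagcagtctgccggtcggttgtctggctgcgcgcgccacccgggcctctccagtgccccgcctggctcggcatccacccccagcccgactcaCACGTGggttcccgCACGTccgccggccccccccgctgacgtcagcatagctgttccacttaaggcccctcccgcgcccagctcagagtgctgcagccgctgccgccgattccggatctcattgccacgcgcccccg
PGK1, chrX:78103998-78104297, plus strand: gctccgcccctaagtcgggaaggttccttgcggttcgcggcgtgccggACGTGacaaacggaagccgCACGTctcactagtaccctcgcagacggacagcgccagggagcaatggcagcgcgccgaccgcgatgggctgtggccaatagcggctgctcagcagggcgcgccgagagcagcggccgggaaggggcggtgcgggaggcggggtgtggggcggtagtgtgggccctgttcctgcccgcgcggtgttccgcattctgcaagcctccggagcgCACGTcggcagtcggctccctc
BHLHE40, chr3:4979187-4979486, plus strand: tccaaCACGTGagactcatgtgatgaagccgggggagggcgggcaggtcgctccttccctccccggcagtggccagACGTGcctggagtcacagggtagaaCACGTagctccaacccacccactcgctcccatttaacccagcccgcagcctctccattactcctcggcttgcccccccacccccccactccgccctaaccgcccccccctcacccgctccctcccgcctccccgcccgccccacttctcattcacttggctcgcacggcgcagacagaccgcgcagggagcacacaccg
A match is a run of letters, and whether HIF was bound there in these cells was not measured here. Genes without a match, such as ADM and RORA, rose as well. Hypoxia genes with the core had a median of 1.52 and those without it 1.95. For glycolysis genes the medians were 1.52 with the core and 0.81 without it, and these differences were not tested. LDHA is counted in neither list.

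Glycolysis rose at nearly every step. Of 19 tested genes of glucose uptake and glycolysis 18 were called higher and 0 lower (median 0.91). The transporter SLC2A3 went from 660.3 and 662 normalized counts to 3167 and 3091 (log2 2.24 ± 0.06), more than SLC2A1 at 0.94 ± 0.03. At the control step of phosphofructokinase, the regulators PFKFB4 (2.03 ± 0.10) and PFKFB3 (1.39 ± 0.06) rose more than the enzyme subunits PFKL (0.90 ± 0.06) and PFKP (0.81 ± 0.04), while PFKM was not called (0.05 ± 0.09). Lower in the pathway, PGK1 went from 7120 and 7035 to 20400 and 20330 and GAPDH from 23220 and 23150 to 66510 and 67100. PKM (0.37 ± 0.01) and ENO1 (0.33 ± 0.01), the last enzymes before pyruvate, rose by little and turned to -0.19 and -0.54 with quantile normalization, and the brain-type isoforms rose more, ALDOC by 1.82 ± 0.11 and ENO2 by 1.70 ± 0.08. Values of GAPDH, LDHA and other genes with processed pseudogenes are uncertain where the authors' counting could split reads between copies.

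Past pyruvate the picture divided. Of 14 genes that decide between lactate and the mitochondrion 5 were higher and 4 lower. LDHA, which makes lactate, rose by 2.54 ± 0.01. The lactate exporter SLC16A3 went from 2664 and 2512 to 6066 and 6166 (log2 1.24 ± 0.03). PDK4 and PDK1, kinases that switch off pyruvate dehydrogenase, rose by 3.09 ± 0.28 and 1.04 ± 0.14. The opposing phosphatase PDP1 (-0.77 ± 0.09), the dehydrogenase subunit DLAT (-0.49 ± 0.08) and the mitochondrial pyruvate carrier MPC2 (-0.48 ± 0.12) fell. In the citric acid cycle 6 of 17 genes were higher and 7 lower, none by 2-fold, with FH, fumarase, at -0.70 ± 0.08 and IDH3A at -0.67 ± 0.11 the largest falls. The subunits of the respiratory chain encoded in the nucleus gave small values, with 10 higher and 7 lower of 33 (median 0.03, but -0.02 with quantile normalization and -0.17 after rescaling).

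Glucose storage rose too. Of 10 glycogen genes 9 were higher and 1 lower (median 1.11). Glycogen synthase GYS1 (1.67 ± 0.07), the branching enzyme GBE1 (1.32 ± 0.05) and the targeting subunit PPP1R3C (2.67 ± 0.29) rose, and so did the phosphorylase PYGL (1.10 ± 0.04), which breaks glycogen down. GYG1, the primer protein glycogenin, fell (-1.08 ± 0.20). The pentose phosphate pathway did not follow: 1 of 7 genes was called higher and 2 lower, with PGD, 6-phosphogluconate dehydrogenase, at -0.80 ± 0.04.

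**Figure D3:**
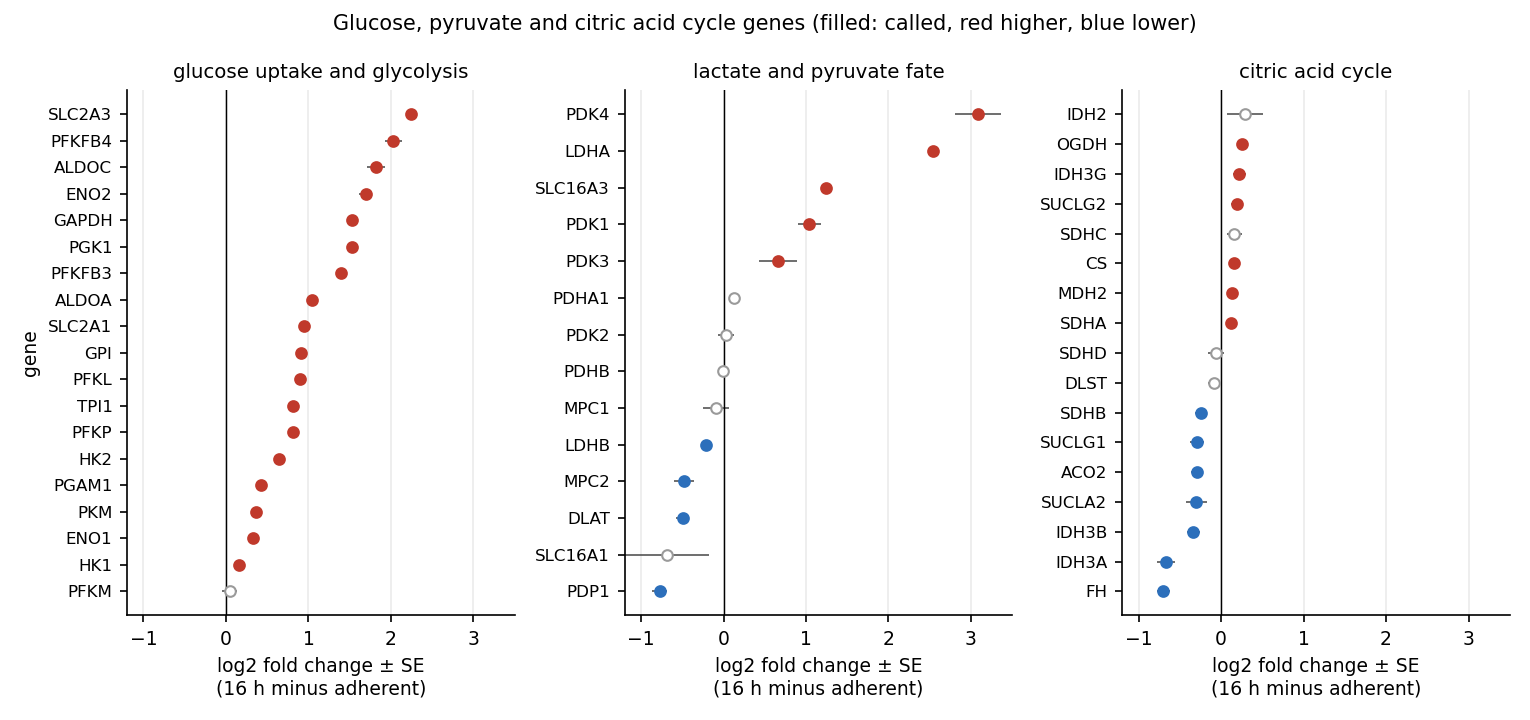
Log2 fold change (horizontal axis, 16 h minus adherent, points with limma standard errors) of the tested genes of glucose uptake and glycolysis, lactate and pyruvate fate, and the citric acid cycle, in 3 panels and ordered by size, filled where called. Most glycolysis genes lie right of 0, the pyruvate panel runs from PDK4 at 3.09 to PDP1 at -0.77, and no citric acid cycle gene reaches 1 in either direction.

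Lipid genes moved in opposite ways for storage and synthesis. Of 11 tested genes of lipid droplets 7 were higher and 1 lower (median 0.79). HILPDA, a hypoxia-induced droplet protein, went from 49.0 and 50.5 to 544 and 497 normalized counts (log2 3.36 ± 0.18). The droplet coat protein PLIN2 went from 1633 and 1601 to 5119 and 5081 (log2 1.66 ± 0.04). CIDEC, a fat cell protein that fuses droplets, had 0 reads in adherent cells and was at least 19.3-fold higher. The monoglyceride lipase MGLL fell (-0.98 ± 0.08), and the triglyceride lipase PNPLA2 was not called (-0.12 ± 0.07).

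ANGPTL4, a secreted lipase inhibitor (log2 9.29 ± 0.10), is a PPAR target, but more genes of PPAR signalling and fatty acid oxidation fell than rose. Of 17 members tested 4 were higher and 8 lower (median -0.28, but -0.11 without 16 h replicate 2). The receptors PPARG (-0.70 ± 0.08), PPARA (-0.45 ± 0.12) and PPARD (-0.28 ± 0.07) fell. PPARGC1A, the co-activator of mitochondrial biogenesis, went from 254 and 209 to 51.2 and 62.3 (log2 -2.01 ± 0.19). Beside ANGPTL4, the acyl-CoA synthetase ACSL1 (1.46 ± 0.05) and the mitochondrial dehydrogenase ACADVL (1.10 ± 0.06) rose.

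Cholesterol genes fell at most steps of the route from acetyl-CoA to cholesterol. Of 28 tested 24 were lower, 9 of them at least 2-fold, and 2 higher (median -0.77). ACAT2, which joins acetyl-CoA at the start of the route, showed the largest fall, from 2234 and 2167 to 643 and 674 normalized counts (log2 -1.74 ± 0.05). SQLE (-1.25 ± 0.06), FDFT1 (-1.04 ± 0.05) and DHCR7 (-1.15 ± 0.04) fell at later steps, and the demethylase CYP51A1 was not called (-0.73 ± 0.34). The exporter ABCA1, a target of the sterol receptor LXR, went from 48.3 and 77.3 to 431 and 365 (log2 2.68 ± 0.18), and MYLIP, another LXR target, rose by 0.48 ± 0.14. The MYLIP call is lost after rescaling (limma adjusted p = 0.0855) and without adherent replicate 1 (log2 0.36, adjusted p = 0.0779) or 16 h replicate 1 (0.35, adjusted p = 0.0948). In fatty acid synthesis 11 of 14 genes were lower, among them ELOVL6 (-0.81 ± 0.07), FADS2 (-0.73 ± 0.03) and ACLY (-0.73 ± 0.03), and ACSL3 alone was higher (0.46 ± 0.04). Too few genes of the cholesterol list (21 of 28) had a promoter window, under the 80% set for a motif search, so no share of the sterol element is given.

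Among genes of lipid mediators the largest rises were those of a lipoxygenase and of an activating protein of another lipoxygenase. Of 13 tested 6 were higher and 3 lower. ALOX15B, which oxidizes arachidonic acid, and ALOX5AP, the 5-lipoxygenase activating protein, had 0 adherent reads, and ALOX5AP was at least 50.4-fold higher, at 93.8 and 112 normalized counts. HPGD, which inactivates prostaglandins, went from 46.0 and 31.1 to 174 and 187 (log2 2.22 ± 0.23). The cyclooxygenases moved apart, the inducible PTGS2 at 0.98 ± 0.13 and PTGS1 at -2.42 ± 0.38, and the prostaglandin E synthase PTGES was lower (-0.58 ± 0.10).

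Glucocorticoid receptor targets rose, while RNA of the receptor itself was not called. NR3C1, the receptor, stood at 1147 and 1070 normalized counts in adherent cells and 1167 and 1043 at 16 h (log2 -0.01 ± 0.07). Of 14 genes in the list 11 were called higher, all of them at least 2-fold, and 2 lower (median 2.30). CEBPD, a transcription factor, went from 91.3 and 82.8 to 1054 and 1129 (log2 3.63 ± 0.11). DUSP1, a MAP kinase phosphatase, went from 622 and 712 to 5091 and 4905 (log2 2.91 ± 0.06). ERRFI1, an inhibitor of the EGF receptor, reached 33330 and 33430 from 6505 and 6898 (log2 2.32 ± 0.02), and ZBTB16, a classic steroid-induced repressor with 0 adherent reads, was at least 27.9-fold higher. SGK1, a kinase that both serum and glucocorticoids induce, was lower (-0.61 ± 0.15), as was CRISPLD2 (-1.55 ± 0.28). SGK1 is not called without adherent replicate 2 (log2 -0.51, limma adjusted p = 0.0572).

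The aryl hydrocarbon targets split by gene. CYP1B1 went from 50.6 and 56.0 to 281 and 316 (log2 2.46 ± 0.19) and the feedback enzyme TIPARP from 382 and 429 to 1621 and 1543 (1.96 ± 0.08), whereas NQO1 fell (-1.67 ± 0.05) and the repressor AHRR was not called (-0.37 ± 0.31). The receptor AHR itself rose by 0.70 ± 0.08. CYP1A1, the classic target of the receptor, fell from 61.1 and 46.9 to 2.13 and 3.66 (-3.83 ± 0.56). Of genes linked to retinoids, the transglutaminase TGM2 (2.69 ± 0.03) and the receptors RARA (0.71 ± 0.12), RARG (0.78 ± 0.11) and RXRA (0.49 ± 0.08) rose, and the degrading enzyme CYP26B1 was not called (0.18 ± 0.24). In the whole list 9 of 13 were higher and 2 lower.

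Close relatives among the clock genes moved apart. Of 15 tested 9 were higher and 3 lower (median 0.53). Beside the repressor PER1 (4.16 ± 0.12), the repressor CRY2 rose (1.48 ± 0.20), but CRY1 (-0.86 ± 0.15) and PER3 (-1.49 ± 0.27) fell. Likewise NR1D1 rose (1.66 ± 0.12) and its relative NR1D2 fell (-0.80 ± 0.08). The activators gave small values, CLOCK at 0.31 ± 0.09, ARNTL at 0.32 ± 0.18 (not called) and NPAS2 at 0.53 ± 0.06. The call of CLOCK is lost after rescaling (limma adjusted p = 0.346) and without adherent replicate 1 (log2 0.27, adjusted p = 0.0676). NFIL3, the repressor of clock output genes, rose by 2.37 ± 0.08, and the output gene DBP was not called (-0.31 ± 0.24).

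Genes of secreted inflammatory proteins rose, many from near 0. Of 22 listed acute-phase genes 9 were tested. Of these 7 were higher, each at least 2-fold, and 1 lower (median 7.34, or 6.30 with CHI3L2, which had 0 adherent reads, at its lower bound, and 4.40 with a pseudocount of 8). Members near 0 in attached cells, such as CHI3L2, could be tested only through their level in spheres. The count and the median therefore describe the tested members and not the whole list. Beside the serum amyloid SAA1 (7.49 ± 0.15), the copper oxidase CP (1.51 ± 0.19) rose, but PTX3, the long pentraxin, fell (-0.53 ± 0.07) from 1069 and 1120 to 712 and 805 normalized counts, and SOCS3, the feedback inhibitor of IL6 signalling, was not called (-0.01 ± 0.11). The complement list gave 8 rises and 1 fall of 12. The proteases of the first component rose together, C1R from 32.5 and 7.92 to 255 and 271 (log2 3.93 ± 0.42) and C1S from 3.02 and 13.4 to 77.8 and 109 (3.61 ± 0.48). Of the membrane regulators, CD59 rose (1.12 ± 0.03) and CD55 fell (-0.96 ± 0.04).

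Chemokines that draw neutrophils rose together. CXCL1 went from 23.4 and 29.2 normalized counts to 374 and 407 (log2 3.85 ± 0.21), IL8 from 155 and 146 to 892 and 811 (2.50 ± 0.11), and CXCL3 and CXCL2 rose by 4.06 ± 0.35 and 1.99 ± 0.25. Other cytokines fell from high adherent levels. CSF1, the macrophage growth factor, went from 5856 and 5641 to 1311 and 1359 (log2 -2.11 ± 0.04), and IL11, a target of TGF-beta, from 329.8 and 282 to 43.7 and 57.4 (-2.58 ± 0.25). In all 9 of 15 were higher and 3 lower. In the interleukin 1 family the receptors IL1RL1 (5.47 ± 0.54) and IL1RAP (1.09 ± 0.14) rose, the cytokine IL18 fell (-1.96 ± 0.18) and IL1B was not called (0.07 ± 0.36).

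Among NF-kappaB genes BIRC3, an inhibitor of apoptosis, rose most, from 133 and 136 to 1744 and 1809 (log2 3.71 ± 0.08), and feedback inhibitors rose too. Of 17 tested 9 were higher and 2 lower. TNFAIP3, the A20 deubiquitinase, went from 116 and 79.2 to 741 and 754 (log2 2.95 ± 0.15) and the endonuclease ZC3H12A from 39.2 and 54.8 to 431 and 462 (3.24 ± 0.21). RELA rose by 0.31 ± 0.05, NFKB1 was lower (-0.33 ± 0.08), and NFKB2 and RELB were not called (-0.03 ± 0.08 and -0.21 ± 0.14). RELA is not called after rescaling (log2 0.11, limma adjusted p = 0.0808). Interferon-stimulated genes divided, with 10 higher and 8 lower of 26. The membrane proteins IFITM3 (0.96 ± 0.04), IFITM2 (1.03 ± 0.08) and BST2 (0.75 ± 0.05) rose. The RNA sensor DDX58 went from 1841 and 1906 to 766 and 808 (log2 -1.25 ± 0.06), and OAS3 (-1.49 ± 0.23) and IFIT3 (-0.52 ± 0.06) fell.

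Antigen presentation genes divided as well. HLA-B went from 1865 and 1953 normalized counts to 10510 and 10290 (log2 2.45 ± 0.04), and HLA-C rose by 1.30 ± 0.05. The values of single HLA genes are uncertain because their sequences are near-identical. The light chain B2M rose by less (0.49 ± 0.03). The peptide transporter subunit TAP2 fell (-0.92 ± 0.12), as did the transactivator NLRC5 (-0.51 ± 0.17) and the checkpoint ligand CD274 (-1.02 ± 0.26). NLRC5 is not called without adherent replicate 1 (log2 -0.37, limma adjusted p = 0.215) or 16 h replicate 1 (-0.40, adjusted p = 0.102). The list gave 7 rises and 6 falls of 18.

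**Figure D4:**
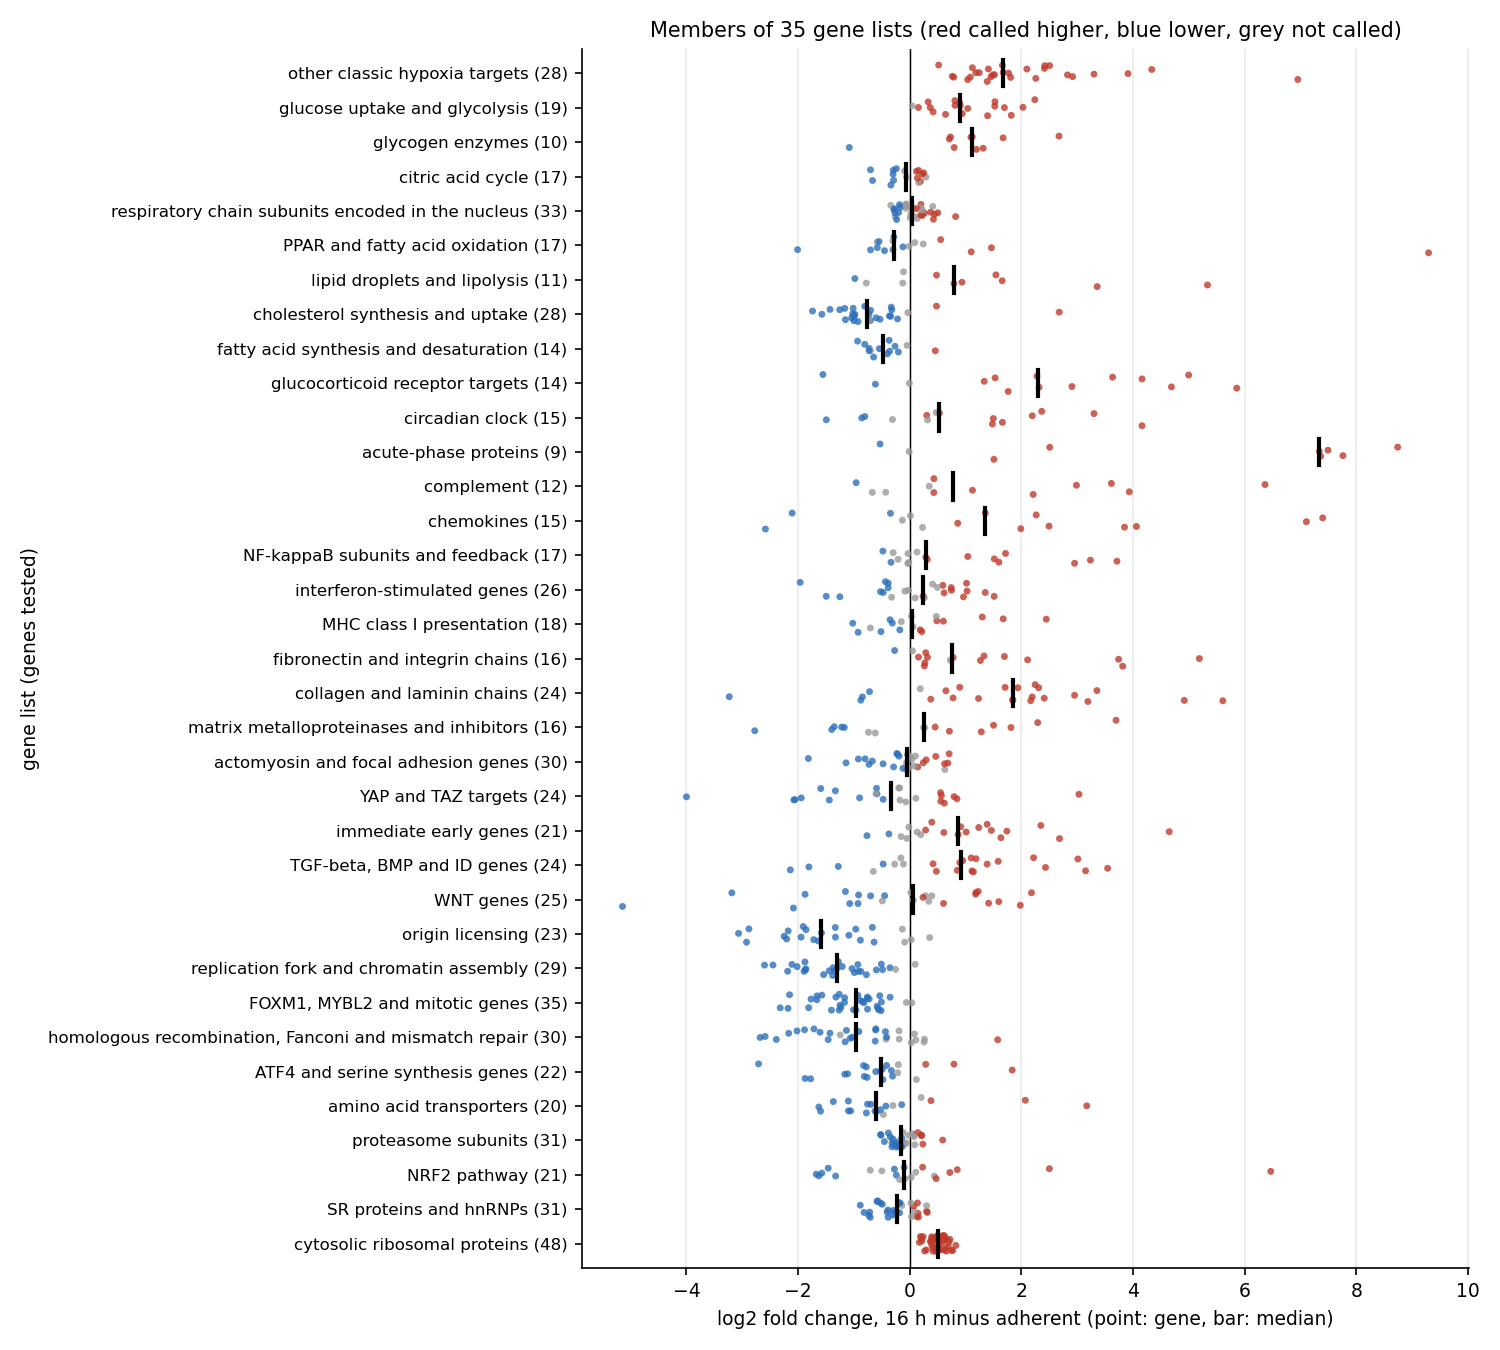
Log2 fold change of every tested member of 35 gene lists (1 point per gene, horizontal axis, 16 h minus adherent), with a bar at each list's median and red, blue and grey for genes called higher, called lower and not called. Hypoxia targets lie wholly to the right of 0, replication and mitosis lists lie almost wholly to the left, and lists such as metalloproteinases and MHC class I presentation spread to both sides.

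Fibronectin and most integrin chains rose. Of 16 tested genes for fibronectin, integrin chains and some proteins that bind integrins inside the cell, 13 were higher and 1 lower (median 0.75). ITGA10, a collagen receptor chain, went from 92.1 and 86.5 normalized counts to 1264 and 1273 (log2 3.81 ± 0.10), and ITGA1, another collagen receptor chain, from 239 and 223 to 1053 and 953 (2.11 ± 0.09). The common beta chain ITGB1 rose by 0.78 ± 0.02 and the laminin receptor chain ITGB4 by 1.70 ± 0.04. ITGA3, a laminin receptor chain, was the only one called lower (-0.27 ± 0.02).

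Collagen and laminin chains followed, with 19 higher and 4 lower of 24 (median 1.85). COL7A1, the anchoring fibril collagen, went from 13.6 and 14 to 410.4 and 485 (log2 4.92 ± 0.23). COL5A1 (2.95 ± 0.08), COL18A1 (2.19 ± 0.09) and COL6A2 (3.35 ± 0.24) rose, as did LAMA3 and LAMB3, chains of a basement membrane laminin (1.71 ± 0.08 and 1.23 ± 0.03). LAMA1, by contrast, went from 115 and 122 to 8.53 and 15.9 (log2 -3.23 ± 0.35), and COL8A1 (-0.88 ± 0.06), COL12A1 (-0.85 ± 0.07) and COL13A1 (-0.72 ± 0.06) fell. Of the enzymes that modify collagen, P4HA1 rose by 2.26 ± 0.05 and PLOD1 by 2.10 ± 0.04, while the hydroxylase P4HA3 (-0.57 ± 0.23) and LOXL2 (-0.33 ± 0.04) were lower. P4HA3 is not called without adherent replicate 1 (log2 -0.43, limma adjusted p = 0.258) or 16 h replicate 2 (-0.40, adjusted p = 0.27), nor by DESeq2 (adjusted p = 0.11). TGFBI, an adhesion protein induced by TGF-beta, went from 95.1 and 93.8 to 1438 and 1430 (3.91 ± 0.12), and the heparan sulphate carrier SDC4 rose by 2.11 ± 0.05 while SDC1 and SDC2 fell (-0.41 ± 0.09 and -0.49 ± 0.10).

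Proteases and their inhibitors exchanged members. TIMP1 went from 2766 and 2824 normalized counts to 36140 and 36340 (log2 3.70 ± 0.03), against falls of TIMP3 from 12580 and 12710 to 1845 and 1848 and of TIMP2 from 12990 and 13000 to 5579 and 5602. The membrane protease MMP14 went from 4359 and 4249 to 15140 and 15120 (1.81 ± 0.02), and ADAM8 (2.29 ± 0.05) and the collagenase MMP1 (1.28 ± 0.06) rose. In the plasminogen system the receptor PLAUR rose (1.50 ± 0.06), while both activators, PLAU (-1.40 ± 0.12) and PLAT (-1.17 ± 0.03), fell. Counts for the list were 7 higher and 5 lower of 16.

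Structural genes of the actin skeleton changed less than the matrix. Of 30 tested 7 were higher and 12 lower, only 2 of them by 2-fold (median -0.05, -0.25 with quantile normalization). TAGLN (-1.81 ± 0.29), FLNC (-1.14 ± 0.08) and ACTN4 (-0.92 ± 0.03) were the largest falls, the last from 9270 and 9409 to 4983 and 4893. The myosin light chains MYL9 (-0.80 ± 0.07) and MYL12B (-0.73 ± 0.03) fell, TPM4 (0.71 ± 0.02) and the focal adhesion kinase PTK2 (0.63 ± 0.04) rose, and SRF, the factor that drives many of these genes, was not called (-0.06 ± 0.06).

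The list of YAP, TAZ, their TEAD partners and genes they are known to drive was lower in 11 and higher in 7 of 24 cases (median -0.34). Beside ANKRD1, AMOTL2 went from 1003 and 1072 to 265 and 227 (log2 -2.07 ± 0.11), CRIM1 from 4097 and 4119 to 1055 and 1080 (-1.94 ± 0.05) and CTGF from 3014 and 2880 to 1161 and 1181 (-1.33 ± 0.05). Not every target fell: the highest log2 fold change in the list, 3.03, was that of a target. It was the 1 rise of at least 2-fold, against 7 such falls. The RNAs of the co-activators rose, YAP1 by 0.62 ± 0.04 and WWTR1, which encodes TAZ, by 0.79 ± 0.06. Their DNA-binding partners TEAD1 and TEAD4 fell (-0.59 ± 0.06 and -0.90 ± 0.19).

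The medium of the spheres held EGF, and several ligands of its receptor rose while receptors fell. AREG (4.76 ± 0.16), EREG and TGFA (1.06 ± 0.11) were higher, EREG from 27.2 and 25.6 to 126 and 105 normalized counts (log2 2.08 ± 0.26), and HBEGF was lower (-1.11 ± 0.16). EGFR went from 4145 and 4069 to 2611 and 2611 (log2 -0.65 ± 0.04) and ERBB3 from 100.4 and 113 to 30.9 and 51.3 (-1.40 ± 0.25). The list of ERK feedback genes gave 8 rises and 4 falls of 17 (median 0.05, but -0.13 with quantile normalization and -0.16 after rescaling), its falls being DUSP10, IL11 and the ETS factors ETV4 and ETV5, with the inhibitors SPRY4 at 1.81 ± 0.04 and SPRED1 at 1.14 ± 0.09, and DUSP4, another ERK phosphatase, not called (0.03 ± 0.03). Of 21 immediate early genes 14 were higher and 2 lower, among them FOS (2.68 ± 0.16), the RNA-destabilizing ZFP36 (2.35 ± 0.09) and EGR1 (1.24 ± 0.07), while FOSL1, a FOS family member, fell from 4780 and 4676 to 2886 and 2680 (-0.77 ± 0.04).

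BMP and TGF-beta genes rose more often than they fell, with 16 higher and 4 lower of 24 (median 0.92). ID1, the classic early target of BMP, went from 23.4 and 40.2 to 325 and 419 (log2 3.55 ± 0.19). Its ligands switched, BMP2 going from 40.0 and 45.7 to 348 and 357 (3.01 ± 0.20) and BMP6 rising by 3.15 ± 0.38, while BMP4 fell from 1532 and 1439 to 308 and 368 (-2.14 ± 0.09). The inhibitory SMAD7 (1.59 ± 0.28) and the receptors TGFBR2 (1.14 ± 0.04) and TGFBR1 (0.85 ± 0.06) rose, and the co-receptor TGFBR3 fell (-1.81 ± 0.16).

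Among other developmental signals, NOTCH genes were higher in 6 and lower in 0 of 11 cases, with the modifier LFNG at 2.41 ± 0.22 and NOTCH1 at 0.93 ± 0.12. WNT genes gave 9 rises and 10 falls of 25. The frizzled receptors divided, with FZD8 (1.18 ± 0.09) and FZD1 (1.23 ± 0.12) higher and FZD4 (-1.15 ± 0.10), FZD2 (-1.07 ± 0.12) and FZD6 (-0.70 ± 0.08) lower. LGR5, a WNT-amplifying receptor and stem cell marker, had 1 read at 16 h, and adherent cells stood at 87.6 (interval 15.7 to 3460) times its level. Among insulin-type genes IRS2, an adaptor of the insulin receptor, went from 235 and 226 to 1537 and 1529 (log2 2.73 ± 0.09), IGFBP4 from 11650 and 11130 to 26920 and 26960 (1.24 ± 0.02), and IGFBP7 fell (-1.16 ± 0.04). Guidance genes gave 15 rises and 10 falls of 32, from the ephrin EFNB2 (2.85 ± 0.08) to SEMA3A (-1.18 ± 0.15) and the receptor EPHA2 (-0.88 ± 0.04).

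Genes of epithelial and mesenchymal identity did not move as blocks. The mesenchymal factors SNAI2 (1.23 ± 0.06), ZEB1 (0.74 ± 0.07) and ZEB2 (1.12 ± 0.17) rose, and CDH2, the neural cadherin, had 2 reads at 16 h, with adherent cells at 22.9 (interval 6.34 to 189) times that level. The mesenchymal cadherin CDH11 was lower by less (-0.25 ± 0.04). Tight junction genes moved apart: CLDN7 rose (1.60 ± 0.12), while CLDN4 fell (-1.10 ± 0.15). KRT81 rose (1.59 ± 0.17) and KRT18 fell (-0.45 ± 0.04). Of 17 listed mucins and luminal secretory genes only 4 were tested, and all 4 were higher, including AGR2 (0.84 ± 0.09). A member near 0 in attached cells could be tested only through its level in spheres, so this count does not describe the whole list. Of 12 markers of stem and tumour-initiating cells 5 were higher, none by 2-fold, and 4 lower, 3 of them at least 2-fold. The lowest log2 fold change in this list was -4.58. PROCR stood at 0.82 ± 0.11, SOX9 at -0.76 ± 0.07 and BMI1 was not called (0.10 ± 0.10). Of 31 listed placental genes 11 were tested, and 8 of these were lower. A member near 0 in spheres could be tested only through its adherent level, so this count does not describe the family. TFPI2, a placental protease inhibitor, rose from 124 and 149 to 739 and 690.0 (log2 2.38 ± 0.13). PAPPA, a protease of IGF-binding proteins, rose from 30.2 and 42.6 to 155 and 159 (2.10 ± 0.22).

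Genes of DNA replication were lower at nearly every step. In origin licensing 19 of 23 genes fell, 15 of them at least 2-fold, and none rose (median -1.58). Within the origin recognition complex the cell cycle-regulated subunits fell, ORC1 from 143 and 155 normalized counts to 17.1 and 20.8 (log2 -2.92 ± 0.27) and ORC6 from 170.5 and 153 to 65.0 and 62.3 (-1.33 ± 0.21). ORC2, ORC3, ORC4 and ORC5 were not called (0.36 ± 0.18, -0.13 ± 0.14, -0.09 ± 0.12 and 0.03 ± 0.17). The helicase loader CDT1 fell from 317 and 328 to 89.5 and 50.1 (log2 -2.25 ± 0.21, limma adjusted p = 1.15e-11), more than its inhibitor GMNN, geminin (-0.67 ± 0.09). The helicase subunits ranged from MCM2 at -2.20 ± 0.12 and MCM5 at -1.91 ± 0.11 to MCM7 at -0.88 ± 0.07. In bulk RNA a lower level can come from fewer cells of a kind or from less RNA in each, and these cannot be told apart.

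The replication fork repeated this, with 27 lower and 0 higher of 29 (median -1.30). The chromatin assembly subunit CHAF1B went from 247 and 273 to 53.3 and 33.0 (log2 -2.60 ± 0.21), the primase PRIM1 from 73.2 and 110.2 to 11.7 and 20.8 (-2.45 ± 0.35) and the sliding clamp PCNA from 1304 and 1291 to 678 and 626 (-0.99 ± 0.07). The single-strand binding subunits moved least, RPA1 by -0.49 ± 0.06 and RPA2 by -0.35 ± 0.09. Enzymes of deoxynucleotide synthesis were lower in 10 of 13 cases, TK1 from 499.5 and 476 to 125 and 106 (-2.07 ± 0.14) and RRM2 from 626 and 627 to 218 and 162 (-1.73 ± 0.11). RRM2B, the reductase subunit of non-dividing cells, was not called (0.16 ± 0.11).

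Of 13 tested genes of the E2F and retinoblastoma families 7 were lower, 5 of them at least 2-fold, and 1 higher. E2F1 and the late repressor E2F7 were among the falls, and some other E2F factors were not called. E2F1 went from 469 and 449 to 50.1 and 79.4 (log2 -2.84 ± 0.19) and E2F7 from 1533 and 1554 to 490.3 and 488 (-1.66 ± 0.07). E2F3, E2F4 and E2F5 were not called (-0.14 ± 0.10, 0.00 ± 0.08 and 0.11 ± 0.14). The pocket proteins diverged, RBL1 at -1.40 ± 0.15 and RBL2, which serves in resting cells, at 0.64 ± 0.14. E2F sites (TTTCCCGC or TTTGGCGC, either strand) were found in the windows of 9 of 20 licensing genes (45%) and 8 of 26 fork genes (30.8%), against 2.31% of all windows and 3.74% of tested genes with a window. Of those 379 tested genes 34.8% were called lower and 20.8% higher. The windows of CDC6, which fell most, and MCM6, which holds 2 sites, show them in capitals.
CDC6, chr17:40287629-40287928, plus strand: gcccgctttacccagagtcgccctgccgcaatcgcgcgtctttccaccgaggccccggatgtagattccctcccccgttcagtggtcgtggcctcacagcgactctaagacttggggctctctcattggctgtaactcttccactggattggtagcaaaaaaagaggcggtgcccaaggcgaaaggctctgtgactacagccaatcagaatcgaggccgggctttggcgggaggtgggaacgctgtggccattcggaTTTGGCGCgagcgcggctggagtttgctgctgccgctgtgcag
MCM6, chr2:135876394-135876693, minus strand: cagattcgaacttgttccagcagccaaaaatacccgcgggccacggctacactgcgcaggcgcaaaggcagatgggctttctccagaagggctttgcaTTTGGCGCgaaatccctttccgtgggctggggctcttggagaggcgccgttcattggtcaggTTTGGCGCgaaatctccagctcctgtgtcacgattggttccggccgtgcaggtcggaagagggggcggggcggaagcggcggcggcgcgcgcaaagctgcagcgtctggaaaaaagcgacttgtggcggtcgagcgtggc
Among the licensing genes, ORC3 had a site and was not called, and MCM2 and ORC1 had none in this window and fell.

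Cyclins and inhibitors of the G1 phase moved in both directions. CDKN1A, the p21 inhibitor, went from 755 and 748 normalized counts to 3899 and 4228 (log2 2.43 ± 0.05, limma adjusted p = 3.25e-31), and CDKN1B, the p27 inhibitor, was not called (-0.09 ± 0.12). The D cyclins exchanged, CCND1 going from 6753 and 6626 to 3943 and 3962 (-0.76 ± 0.03), CCND3 from 1157 and 1176 to 3320 and 3327 (1.51 ± 0.04) and CCND2 from 55.1 and 64.5 to 307 and 294 (2.31 ± 0.17). Later cyclins fell, CCNE2 by -1.10 ± 0.20, CCNA2 by -1.44 ± 0.12 and CCNB1 by -0.93 ± 0.09, as did CDC25A (-1.66 ± 0.25) and CDK1 (-0.99 ± 0.13).

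Mitotic genes had a median nearer 0 than the replication lists (-0.96), with 33 of 35 lower and 0 higher. The difference between these lists was not tested. MYBL2, a factor of late cell cycle genes, went from 141 and 186 to 37.3 and 34.2 (log2 -2.15 ± 0.22), the centromeric histone CENPA from 108 and 122 to 30.9 and 19.5 (-2.18 ± 0.32) and the kinase AURKB from 299.6 and 315 to 82.1 and 114 (-1.66 ± 0.18). MKI67, the proliferation marker, fell by -0.75 ± 0.06, and TOP2A, the mitotic topoisomerase, stood at 1452 and 1435 and 1398 and 1372 (-0.06 ± 0.06, not called). The cell cycle homology region TTTGAA lay in 20 of 28 mitotic windows (71.4%), against 15.4% of all windows and 9.69% of tested genes with a window. Of those 983 tested genes 32.2% were called lower and 26.2% higher. Mitotic genes with the region had a median of -0.87 and those without it -1.46. TOP2A has the region and was not called, and MYBL2 and AURKB have none in this window and fell. The window of CDC20, the anaphase activator (log2 -1.23 ± 0.10), holds the region at 2 places, shown in capitals (TTTGAA or, on the other strand, TTCAAA).
CDC20, chr1:43358731-43359030, plus strand: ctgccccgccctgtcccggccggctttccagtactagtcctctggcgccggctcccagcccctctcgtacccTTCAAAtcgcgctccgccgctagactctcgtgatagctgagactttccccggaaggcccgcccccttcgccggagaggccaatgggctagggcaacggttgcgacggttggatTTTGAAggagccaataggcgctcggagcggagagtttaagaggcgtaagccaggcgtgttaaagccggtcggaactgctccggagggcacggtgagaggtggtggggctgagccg
Kinesins fell in 16 and rose in 4 of 23 cases, the mitotic KIF2C by -1.56 ± 0.12 and KIFC1 by -1.30 ± 0.11, while the cargo motors KIF5B (0.47 ± 0.04) and KIF13B (0.90 ± 0.10) rose.

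Repair genes that act in S phase mostly fell as well. Of 30 genes of homologous recombination, the Fanconi pathway and mismatch repair 20 were lower and 1 higher (median -0.97). EXO1 went from 163 and 187 to 30.9 and 34.2 (log2 -2.39 ± 0.22) and BRIP1 from 138 and 133 to 41.6 and 25.6 (-2.02 ± 0.25). BRCA1 fell by -1.06 ± 0.22 and BRCA2 was not called (-0.19 ± 0.24). ATM, the damage kinase, was the single rise, from 195 and 240.5 to 653 and 644 (1.58 ± 0.10). Of chromatin factors, the DNA methyltransferases DNMT1 (-1.21 ± 0.05) and DNMT3B (-1.74 ± 0.25) fell. The Polycomb members PHC3 (1.73 ± 0.11) and PHC2 (1.13 ± 0.04) rose, and other Polycomb members fell. The list of Polycomb and DNA methylation genes gave 11 rises and 11 falls of 34, with 2 rises and 5 falls of at least 2-fold. Of 20 histone demethylases 11 were higher and 2 lower, with KDM5B at 1.50 ± 0.07.

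**Figure D5:**
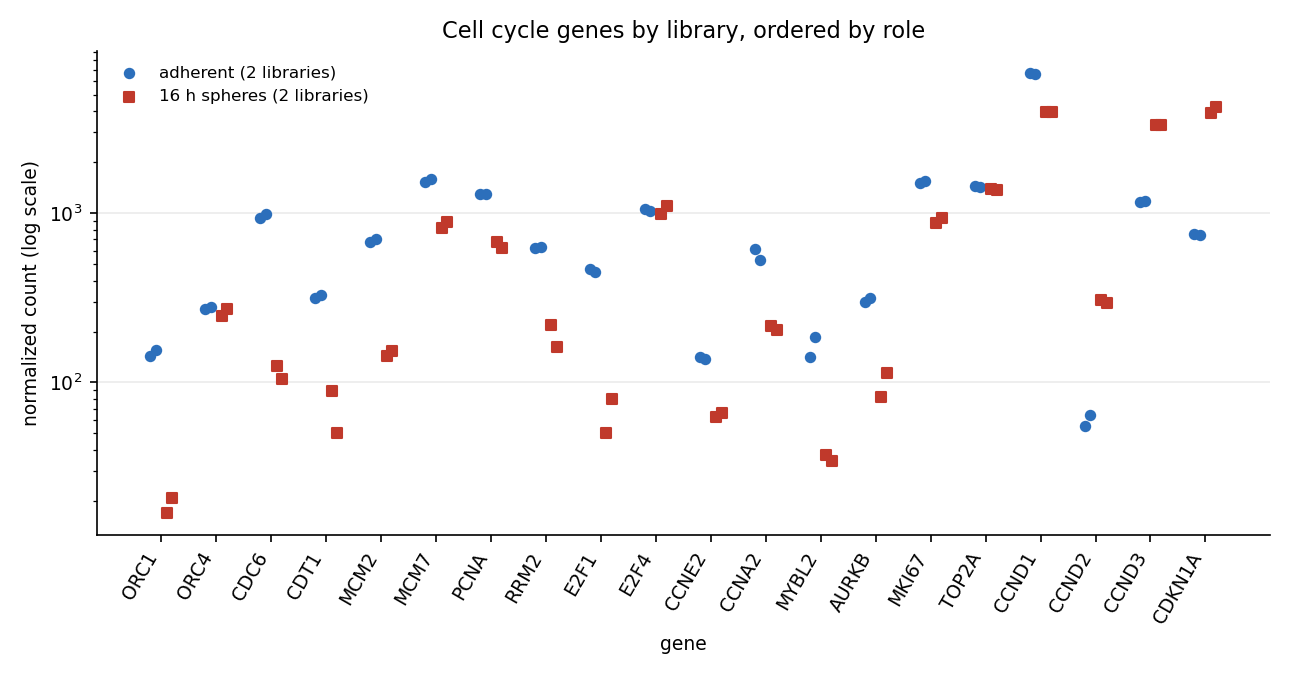
Normalized counts in each of the 4 libraries (vertical axis, log scale, 1 point per library, adherent in blue and 16 h in red) of 20 cell cycle genes ordered by role, from origin recognition to the G1 inhibitors. ORC1, CDC6 and E2F1 lie well apart between groups, ORC4, E2F4 and TOP2A overlap or nearly so, and CDKN1A, CCND2 and CCND3 are the genes that are higher at 16 h.

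Among genes of growth arrest and stress, GADD45A rose (1.20 ± 0.09), MDM2 was not called (0.04 ± 0.11), PHLDA3 fell (-1.39 ± 0.21), and GDF15, a stress cytokine, went from 1631 and 1589 to 249 and 227 (log2 -2.75 ± 0.10). In the BCL2 family MCL1, a short-lived survival protein, went from 2162 and 2133 to 15350 and 14920 (2.82 ± 0.03) and BCL2 from 142 and 114 to 24.5 and 15.9 (-2.63 ± 0.31).

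Genes of amino acid supply were mostly lower. Of 22 ATF4 targets and serine synthesis genes 16 fell and 3 rose (median -0.51). PHGDH, the first enzyme of serine synthesis, went from 1035 and 917 normalized counts to 306 and 264 (log2 -1.77 ± 0.10), PSAT1 fell by -1.16 ± 0.05 and SHMT2 by -1.11 ± 0.04. ATF4 RNA, whose protein is controlled by translation, changed by -0.31 ± 0.04, and CEBPB was the largest rise (1.84 ± 0.05). Transporters of amino acids fell in 14 of 20 cases, among them SLC7A11, the cystine importer, from 1431 and 1407 to 470.0 and 447 (-1.63 ± 0.08), its partner chain SLC3A2 from 6651 and 6594 to 2223 and 2156 (-1.60 ± 0.04) and SLC7A5 (-1.10 ± 0.03). The cationic transporter SLC7A2 rose (2.07 ± 0.10). Of the aminoacyl-tRNA synthetases 11 fell and 6 rose of 22, with WARS (-1.10 ± 0.04), IARS (-0.92 ± 0.04) and SARS (-0.87 ± 0.04) lowest. The C/EBP-ATF element TGATGNAA lay in the windows of 6 of 18 synthetase genes (33.3%) and 4 of 18 transporter genes (22.2%), against 3.67% of all windows and 1.72% of tested genes with a window. The list of ATF4 targets had windows for 17 of 22 genes, too few for a share.

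Chaperones moved in both directions. In the unfolded protein response 10 of 22 genes rose and 3 fell, none by 2-fold (median 0.09, but -0.09 with quantile normalization and -0.12 after rescaling). The sensor ERN1 (0.98 ± 0.11) and the degradation adaptor SEL1L (0.84 ± 0.05) rose, and DNAJB11 fell (-0.52 ± 0.07). In the cytosol the inducible HSPA1A and HSPA1B, whose sequences are near-identical and whose single values are uncertain, rose by 1.62 ± 0.10 and 1.32 ± 0.06. HSPH1, a nucleotide exchange factor, fell from 4906 and 4879 to 1613 and 1666 (-1.58 ± 0.04), and the mitochondrial HSPA9 by -0.56 ± 0.03. Proteasome subunits were lower in 17 and higher in 5 of 31 cases, none by 2-fold (median -0.16).

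Some lysosomal hydrolases rose while other lysosomal genes fell. The cathepsin CTSL went from 1564 and 1449 to 4867 and 4808 (log2 1.68 ± 0.04), and the cathepsin CTSB rose by 1.46 ± 0.04. The proton pump subunit ATP6V0D1 (-0.92 ± 0.07) and the factor MITF (-2.04 ± 0.13) fell. The list gave 11 rises and 14 falls of 31, and autophagy genes 4 and 8 of 26, with the receptor SQSTM1 at -0.71 ± 0.03 and ATG14 at 0.73 ± 0.08.

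Targets of NRF2, the antioxidant factor, moved in both directions. NQO1 went from 2004 and 1988 normalized counts to 609 and 642, TXNRD1 from 6571 and 6601 to 2418 and 2373 (log2 -1.46 ± 0.03) and HMOX1 from 343 and 296 to 129 and 87.9 (-1.57 ± 0.17). The glutathione synthesis subunits moved apart, GCLM at -1.33 ± 0.16 and GCLC at 0.72 ± 0.10. Ferritin chains FTH1 (0.85 ± 0.02) and FTL (0.47 ± 0.02) rose. The list held 6 rises, with TXNIP counted among them, and 8 falls of 21. At least 2-fold were 2 of the rises and 5 of the falls. Metallothioneins and zinc genes gave 8 rises and 2 falls of 12. MT1X went from 454 and 492 to 9551 and 9360 (log2 4.32 ± 0.04) and MT2A from 16080 and 16160 to 50010 and 50090 (1.63 ± 0.09), values that are uncertain between these similar genes, and the importer SLC39A14 fell (-0.95 ± 0.07).

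RNAs of the ribosome rose and RNAs of splicing fell. All 48 cytosolic ribosomal protein genes tested were called higher, none by 2-fold (median 0.51, 0.07 with quantile normalization), from RPS14 at 0.83 ± 0.04 downwards. Their many pseudogenes make single values uncertain. Translation factors gave 18 rises and 6 falls of 33 (median 0.11, but -0.09 with quantile normalization and -0.10 after rescaling), with EIF4B at 0.87 ± 0.03 and the initiation inhibitor EIF4EBP1 at -0.76 ± 0.06. Genes that build ribosomes gave 9 rises and 14 falls of 38 (median -0.03). SR proteins and hnRNPs fell in 19 and rose in 7 of 31 cases (median -0.23), HNRNPD from 3489 and 3495 to 1844 and 1938 (-0.88 ± 0.04) and SRSF1 from 1636 and 1640 to 1012 and 960.0 (-0.73 ± 0.06).

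Some rises concern RNAs whose capture depends on how a library is made. The mitochondrial ribosomal RNAs MT-RNR1 and MT-RNR2 rose from 7364 and 7196 to 45730 and 46130 (log2 2.66 ± 0.01) and from 57700 and 57760 to 172500 and 173300 (1.58 ± 0.01), more than the mitochondrial messenger RNAs, whose largest rise was MT-ND6 at 0.49 ± 0.02 (-0.07 with quantile normalization). The mitochondrial list had a median of 0.40 and one of -0.31 with quantile normalization. Mitochondrial ribosomal proteins encoded in the nucleus gave 7 rises and 13 falls of 35. RN7SK, a nuclear RNA without a poly(A) tail, went from 33.2 and 37.1 to 861 and 867 (4.58 ± 0.11), and MALAT1, a nuclear long noncoding RNA, from 206 and 205 to 1697 and 1767 (3.07 ± 0.07), whereas NEAT1, another nuclear noncoding RNA, fell from 1237 and 1225 to 561 and 595 (-1.09 ± 0.06). Histone genes of the replication-dependent clusters rose in 9 of 10 cases, HIST1H2BK from 1278 and 1321 to 2574 and 2669 (1.01 ± 0.05), while the replication genes fell. The part of RNA quality or library making in these rises was not tested.

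Classes of gene differed in how often they were called. Of 11759 protein-coding genes tested 57.2% were called, of 1175 antisense genes 33.4% and of 372 long intergenic noncoding RNAs 36.8%. The median log2 fold change of the last class was -0.18. Antisense genes overlap others by definition, and their reads are uncertain for the reason given above. In the list of S100 proteins, which also holds the binding protein S100PBP, 7 of 11 tested members were higher and 0 lower, S100P from 177 and 159.5 to 750.4 and 733 (log2 2.13 ± 0.11) and S100A10 from 2778 and 2790 to 5641 and 5790 (1.04 ± 0.03). S100PBP (0.34 ± 0.13) is not called without adherent replicate 1 (limma adjusted p = 0.135), adherent replicate 2 (0.114) or 16 h replicate 1 (0.192).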

How the data were processed

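Total RNA was extracted with TRI Reagent and libraries were prepared without strand information by TruSeq RNA v2, per the labels' protocols. Tools listed are TopHat2, Partek and CASAVA 1.4, with hg19 as the build, per the submitters' processing notes, which give them no role, and the read counter is not given in the sources used here. The authors deposited the culture libraries as log2-type values, which the name of the table and its values show to be a DESeq2 variance-stabilizing transform, with the same lowest value of 13.42 in all 6 libraries. Its exact inverse gave normalized counts and then whole reads for 100% of values (within 0.05 reads). A signal table of an siEZH2 experiment, deposited as linear normalized counts, served only to check that step, and a further knockdown table was not used here. Depth ranged from 6104222 to 14781941 reads per library.

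Log2(normalized count + 1) was fitted with limma 3.58.1 in R 4.3.3 (eBayes with trend and robust, 3 groups of 2 libraries, 3 residual degrees of freedom before moderation), two-sided, with Benjamini-Hochberg adjustment. This log scale understates the change of low genes. The planned test for linear values was kept because the inverse could be had. On simulated data of 13775 genes limma recovered 75% of changes of 1 on the log2 scale and 95.9% of changes of 2, with 0 unchanged genes called. Only 100 genes there changed by 1 and 98 by 2, in both directions and with known scaling, whereas 53.9% were called in the data. The 0 false calls therefore need not hold for this comparison. Replicates of a group scattered 1.39 to 1.93 times as much as counting alone gives. edgeR 4.0.16 and DESeq2 1.42.0 on recovered reads, other scalings, filters and pseudocounts, and leaving out each library, were alternatives.

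The members and the 75 gene lists were chosen with earlier results of these data known. Genes named are the 25 largest rises and falls (with 100 or more normalized counts on average in the group where the gene is higher, and groups that do not overlap), up to 6 called members of a list in each direction with such a mean, up to 4 of its most abundant members, members that define a list, the 10 genes with most reads, genes with 0 reads in a group, and markers. Promoter windows came from RefSeq on GRCh38.p14, matched by symbol to 10140 of 13789 genes, and no coordinate of the hg19 files was used with them. Results for some genes are not reported here.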

Additional observations from a re-analysis of the deposited data

How the results depend on the processing

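The counts of genes called stayed within 1.5 times of 3775 higher and 3655 lower under all 15 alternatives run, from 2523 to 3990 higher and from 2867 to 5449 lower. Leaving out each library in turn gave 3150 to 3299 higher and 2867 to 3296 lower, and 1119 to 1140 and 1076 to 1232 changed at least 2-fold. Counts of at least 2-fold, 1177 higher and 1186 lower, moved past 1.5 times only in these cases: a mean of at least 50 left 757 lower, since fewer genes are tested, and the transformed values as deposited gave 16 higher and 1 lower, since that transform compresses differences. edgeR called 3985 higher and 3821 lower and DESeq2 3277 and 3084. With the replicate number as a block there were 3812 higher and 3709 lower, and 1183 and 1199 at least 2-fold. The groups share only 2 numbers, which no label ties to a culture, so the numbers were not taken as pairs. Of the genes named, 386 were tested and 355 called, with limma adjusted p up to 0.0403, and 12 lost their call in some alternative, 7 of them when a library was left out. Beside those given above, ERBB2 (log2 -0.27) gave -0.21 without adherent replicate 1 (limma adjusted p = 0.118), CAV1, CD44 and P4HA3 lost their call with quantile normalization, CAV1 and S100PBP after rescaling, P4HA3 without a filter, S100PBP with DESeq2, and CAV1, CDH11, MYLIP, NLRC5, P4HA3, PPARD and S100PBP in limma without the trend. In 74 of 75 gene lists the median moved by more than its spread between libraries in some alternative. The alternatives counted include the transformed values as deposited, which compress differences, and rescaling, which lowered the median of every list. This count alone therefore says little about a single list. Beside those given above, leaving out 1 library moved these printed medians by over 1.5 times: respiratory chain subunits (0.09 without 16 h replicate 1), actomyosin genes (-0.03 without adherent replicate 1), ERK feedback (0.03 without 16 h replicate 2), the unfolded protein response (0.03 without adherent replicate 2, 0.04 without 16 h replicate 2) and ribosome building (-0.08 without adherent replicate 2, -0.05 without 16 h replicate 2). Quantile normalization turned the sign of CD44 (-0.04), DUSP4 (-0.29), EEF1A1 (-0.49), ENO1 (-0.54), MSN (-0.59), MT-ND6 (-0.07) and PKM (-0.19), and rescaling that of CAV1 (-0.02), DUSP4 (-0.18), EEF1A1 (-0.20) and MSN (-0.17). The cause was not tested. With 2 libraries a group, a difference near 2-fold in a gene of few reads was not always detectable.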
